A study of Mus musculus with 6 samples.

Results

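The genes examined were 10 of the 53465 genes in the count table, chosen by symbol because their products write, keep or remove 5-methylcytosine, the main methylation mark on mammalian DNA. They were the methyltransferase genes Dnmt1, Dnmt3a, Dnmt3b and Dnmt3l, the maintenance regulators Uhrf1 and Dppa3, the dioxygenase genes Tet1, Tet2 and Tet3, and the glycosylase gene Tdg. RNA had been sequenced from MII stage oocytes, the mature egg arrested in the second meiotic division, of aged Kunming (KM) mice 9 to 10 months old. The oocytes had been matured in vitro without quercetin in 3 control pools and with 10 μM quercetin, a plant flavonol, in 3 other pools. Each pool joined 15 oocytes from 3 mice, so the differences between single mice and single oocytes were not measured, and Kunming is an outbred stock. The quercetin had been dissolved in DMSO, and whether the control medium held DMSO was not given in the sources used here. The comparison asks whether the RNA of these genes differed between quercetin-treated and control oocytes of aged mice.

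In an oocyte the methylation of DNA is laid down during growth, by DNMT3A with its catalytically inactive partner DNMT3L, and it is complete before meiosis resumes. At each replication DNMT1 copies the mark onto the new strand, guided by UHRF1, which binds hemimethylated CpG sites, and DPPA3 (also called STELLA or PGC7) holds UHRF1 out of the nucleus. The TET dioxygenases oxidise 5-methylcytosine, TET3 being the form known from the egg and zygote, and TDG cuts out the most oxidised bases so that base excision repair can restore cytosine. A fully grown oocyte does not transcribe, so its RNA level follows from what was stored and what was degraded, and the poly(A) tail that cDNA synthesis relies on also changes during maturation.

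The pools held 7880467 to 9938743 counts each. Levels are given as CPM, each gene's share of a pool's counts scaled to a common total, on library sizes scaled by the trimmed mean of M values (TMM), and as CPM per kilobase of exon where genes are compared with each other. By its labels each pool is oocytes only. All 12 genes of a list of oocyte markers had counts, led by Oosp1 and Gdf9, and their summed level was 17800 to 21300 CPM in control and 20500 to 22300 CPM in quercetin pools. Of 12 markers of cumulus and granulosa cells, which surround the oocyte, 9 had counts and Ptx3, Amh and Foxl2 had none. Their sum was 73.7 to 91.3 CPM in control and 93.9 to 99.3 CPM in quercetin pools, most of it from Cyp19a1 and then Nr5a2. Of 7 blood and immune markers 4 had counts, led by Cd68 and Lyz2, and the haemoglobin genes Hba-a1, Hbb-bs and Hbb-bt were at 0, with sums of 3.26 to 4.09 CPM and 3.62 to 4.24 CPM.

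Dppa3, Tdg and Uhrf1 each have near-identical processed copies elsewhere in the genome. Among the members they share the largest parts of their 31-base words with other genes, 29.62% for Dppa3, 47.97% for Tdg and 24.25% for Uhrf1. The aligned coding sequence of Dppa3 is 98.21% identical to that of Dppa3-ps, and for Tdg and Tdg-ps the value is 98.73%. For Uhrf1 and its copy Gm5648 it is 98.48%, over 1584 aligned bases of the 2346 coding bases of Uhrf1. A stretch of 120 coding bases of Dppa3 and of Tdg is shown, each with its copy, to make clear how few bases tell the reads apart. Capitals mark the bases that differ between the gene and its copy, and coordinates are on GRCm38. The Dppa3 stretch runs from coding base 3 to 122, over the end of exon 1 and the start of exon 2 (chr6:122626525-122626610 and chr6:122628577-122628610, plus strand), and the copy lies at chrX:37625978-37626097 on the minus strand.
Dppa3: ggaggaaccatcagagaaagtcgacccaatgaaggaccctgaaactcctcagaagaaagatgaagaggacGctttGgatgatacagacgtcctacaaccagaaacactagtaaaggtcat
Dppa3-ps: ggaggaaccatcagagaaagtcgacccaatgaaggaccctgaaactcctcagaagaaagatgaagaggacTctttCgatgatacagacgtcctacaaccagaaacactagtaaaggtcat
The Tdg stretch is the first 120 coding bases, in exons 1 and 2 (chr10:82630016-82630038 and chr10:82638701-82638797, plus strand), and its copy lies at chr15:82516412-82516531 on the plus strand.
Tdg: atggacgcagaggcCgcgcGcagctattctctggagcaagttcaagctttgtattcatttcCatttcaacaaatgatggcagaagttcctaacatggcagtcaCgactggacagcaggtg
Tdg-ps: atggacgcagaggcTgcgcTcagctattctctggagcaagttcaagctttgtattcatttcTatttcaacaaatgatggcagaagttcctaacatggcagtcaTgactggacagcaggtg
The Dppa3 pair differs at 2 of these bases and the Tdg pair at 4. A short read that covers none of them matches gene and copy equally well.

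Of the 10 genes, 9 had counts in all 6 pools and were tested, and Tdg was not tested for lack of counts. None was called in edgeR's quasi-likelihood test, which asked for a fold change above 2 as well as an adjusted p below 0.05, and the share called over all 11842 tested genes was also 0%. At an unadjusted p under 0.05 no member passed either, against 4.03% of all tested genes (2.14% higher and 1.89% lower with quercetin). In pooled RNA, a lower value from fewer contributing oocytes and from less RNA per oocyte cannot be told apart. The fitted log2 fold change of quercetin against control was above 0 for 3 members and below 0 for 6, with a median of -0.13, beside a median of -0.03 over all tested genes. The 95% interval of the fold change lay inside a 2-fold change either way for Dnmt1, Dnmt3a, Dnmt3b, Uhrf1, Dppa3 and Tet3. For Dnmt3l and Tet1 it reached past a 2-fold decrease and for Tet2 past a 2-fold increase. Changes of that size in those directions were not excluded at this spread and depth.

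**Figure D1:**
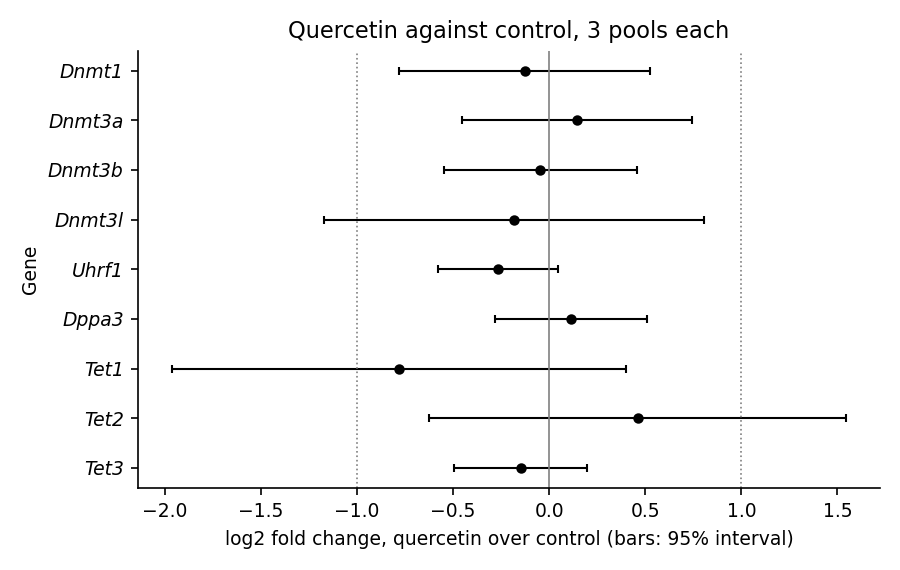
Log2 fold change of quercetin over control for the 9 tested genes, each point the edgeR estimate with its 95% interval over 3 pools against 3. A solid line marks no change and dotted lines a 2-fold change either way. Every interval crosses 0, and those of Dnmt3l, Tet1 and Tet2 reach past 2-fold.

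Dnmt1, the methyltransferase that maintains the mark after replication, had the highest level per kilobase of exon of the methyltransferase genes (ENSMUSG00000004099, chr9:20907209-20959888, minus strand). It measured 423, 823 and 715 CPM in control pools 1, 2 and 3 and 483, 476 and 834 CPM in quercetin pools 1, 2 and 3. Control pool 1 and quercetin pools 1 and 2 were low, control pools 2 and 3 and quercetin pool 3 were high, and the groups overlapped throughout their range. The means were 653 ± 207 CPM in control and 598 ± 205 CPM in quercetin pools (SD, n = 3 each). In the fit the log2 fold change was -0.13 (SE 0.288, edgeR adjusted p = 0.993), a fold of 0.915 with a 95% interval of 0.583 to 1.44. The highest pool was 1.97 times the lowest, and the coefficient of variation over the 6 pools was 29.8%. Poisson counting of that many reads, which leaves out amplification, gives 1.36%. The annotation holds 7 transcripts of Dnmt1, and gene counts do not tell them apart.

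Dnmt3a, the de novo methyltransferase of the growing oocyte (ENSMUSG00000020661, chr12:3806007-3914443, plus strand), measured 37.7, 37.1 and 21.7 CPM in the control pools and 35.8, 27.97 and 43.0 CPM in the quercetin pools. Control pool 3 was the lowest and quercetin pool 3 the highest, and the groups overlapped. The means were 32.2 ± 9.08 CPM in control and 35.6 ± 7.499 CPM in quercetin pools (SD, n = 3 each), with a log2 fold change of 0.14 (SE 0.265, edgeR adjusted p = 0.9896), a fold of 1.11 with a 95% interval of 0.730 to 1.67. An antisense gene, Dnmt3aos, overlaps 0.80% of its exon length.

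Dnmt3b, the de novo enzyme known mainly from the early embryo, was measured more evenly (ENSMUSG00000027478, chr2:153649450-153687730, plus strand). Its pools stood at 14.1, 10.8 and 11.03 CPM in control and at 10.8, 11.6 and 12.5 CPM in quercetin. Control pool 1 was the highest, the other 5 pools lay close together, and the groups overlapped. Quercetin and control differed by a log2 fold change of -0.05 (SE 0.221, edgeR adjusted p = 0.997), a fold of 0.969 with a 95% interval of 0.685 to 1.37. The neighbouring paralog Dnmt3c, which methylates transposons in male germ cells, shares 13.48% of the 31-base words of Dnmt3b and had 4, 5 and 7 counts in control and 10, 7 and 9 in quercetin pools.

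Dnmt3l, the catalytically inactive partner of DNMT3A, varied most between pools among the methyltransferase genes (ENSMUSG00000000730, chr10:78041947-78063622, plus strand). It measured 15.7, 33.2 and 12.3 CPM in the control pools and 9.14, 21.3 and 23.3 CPM in the quercetin pools. Control pool 2 was the highest of all and quercetin pool 1 the lowest, a ratio of 3.63, and the groups overlapped. The means were 20.4 ± 11.2 CPM in control and 17.9 ± 7.66 CPM in quercetin pools (SD, n = 3 each), a log2 fold change of -0.18 (SE 0.437, edgeR adjusted p = 0.993) and a fold of 0.881 with a 95% interval of 0.444 to 1.75. Over the 6 pools the coefficient of variation was 45.4%, against 7.78% from Poisson counting of reads. The opposite-strand gene Aire overlaps 2.24% of its exon length and had 18 to 49 counts per pool.

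Other oocyte genes also differed between pools of one group, and the zona pellucida genes, which encode the oocyte's coat, are given beside Dnmt3l and Dnmt1 because their values were seen to move with Dnmt3l. Relative to the mean of the 6 pools, Dnmt3l stood at 0.820, 1.73 and 0.640 in control and 0.478, 1.11 and 1.22 in quercetin pools. Zp3 stood at 0.545, 1.77 and 0.774 in control and 0.5, 1.11 and 1.30 in quercetin pools, and Zp2 at 0.284, 1.98 and 0.801 and at 0.166, 1.08 and 1.69. For Dnmt3l, Zp2 and Zp3, control pool 2 was highest and quercetin pool 1 lowest. Zp1, at 0.499, 1.33 and 1.04 in control and 0.479, 1.09 and 1.56 with quercetin, was highest in quercetin pool 3. Of the 12 oocyte markers, only Zp2 and Zp3 had both the highest and the lowest pool of Dnmt3l. Nlrp5 nevertheless stood above the mean of the 6 pools in the same pools as Dnmt3l. It ran at 0.728, 1.21 and 0.843 in control and 0.765, 1.08 and 1.37 with quercetin. Gdf9 did not, and ran at 0.939, 0.894 and 0.934 in control and 1.20, 0.962 and 1.07 with quercetin. For Dnmt1 the relative values were 0.676, 1.31 and 1.14 in control and 0.772, 0.761 and 1.33 with quercetin, so quercetin pool 2 stood low for Dnmt1 and not for the zona genes. The part of these differences between pools in the results for Dnmt1 and Dnmt3l was not tested.

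**Figure D2:**
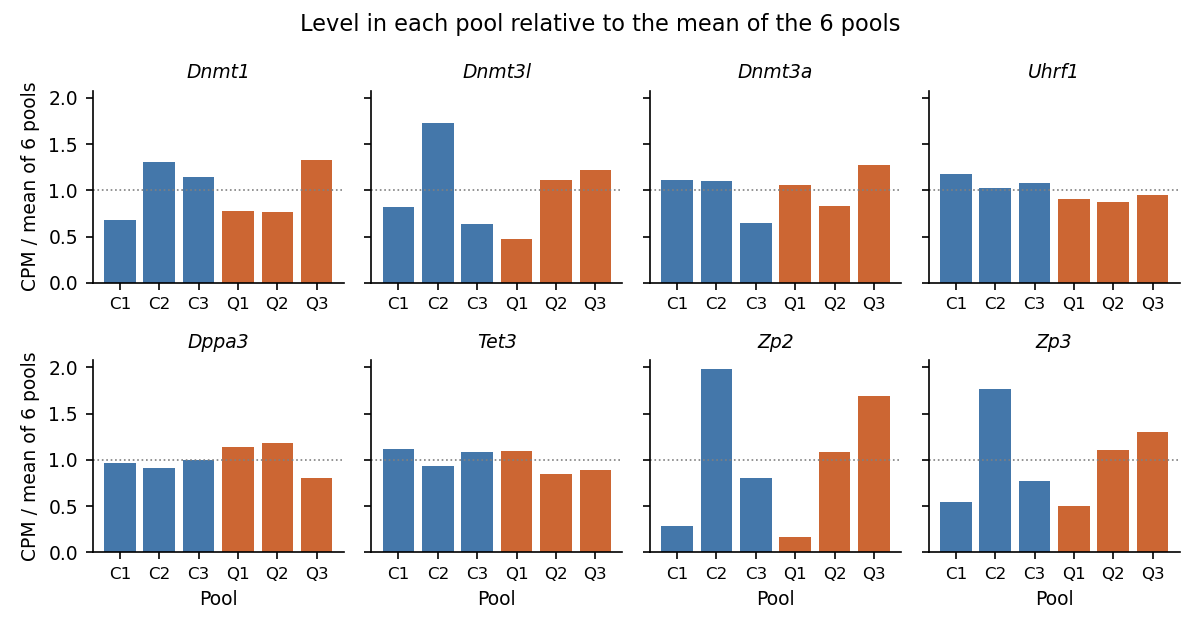
CPM of each pool divided by the mean of the 6 pools, as bars from 0, for Dnmt1, Dnmt3l, Dnmt3a, Uhrf1, Dppa3, Tet3, Zp2 and Zp3, with control pools C1 to C3 in blue and quercetin pools Q1 to Q3 in orange. Dnmt1 and Dnmt3l swing between pools of the same group, whereas Uhrf1 stays between 0.869 and 1.18 and Tet3 between 0.847 and 1.12.

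Uhrf1, which recognises hemimethylated CpG sites and recruits DNMT1, was the only tested member whose groups did not overlap (ENSMUSG00000001228, chr17:56303321-56323486, plus strand). It measured 135, 117 and 124 CPM in the control pools and 103, 99.7 and 109 CPM in the quercetin pools. Each quercetin pool lay below each control pool, although the gap between the nearest pools was small beside the distance between the highest and lowest control pools. The means were 125 ± 9.36 CPM in control and 104 ± 4.92 CPM in quercetin pools (SD, n = 3 each). The log2 fold change was -0.27 (SE 0.138), a fold of 0.832 with a 95% interval of 0.670 to 1.03, and the edgeR test gave an unadjusted p of 0.0860 and an adjusted p of 0.988. A two-sided exact permutation test over the pools gave p = 0.1, the smallest that 3 pools against 3 can give. The groups of 10.6% of all tested genes did not overlap (5.42% with quercetin higher and 5.17% with quercetin lower), and the 1 of 9 members, 11.1%, was near that share. Uhrf1 was also the most repeatable member, with a within-group SD of 0.0893 on the log2 scale against a median of 0.319 over tested genes. The summed cumulus and granulosa markers did not overlap either, at 73.7 to 91.3 CPM in control and 93.9 to 99.3 CPM in quercetin pools. Most of that sum was the single gene Cyp19a1, with means of 64.3 CPM in control and 74.6 CPM in quercetin pools and no overlap. The groups of Nr5a2, the next in the sum, overlapped, and the means of Fshr and Star were lower with quercetin. The part of these markers in the result for Uhrf1 was not tested. The processed copy Gm5648 on the X chromosome shares 21.88% of the 31-base words of Uhrf1, yet it had 5 to 21 counts per pool where Uhrf1 had 826 to 1207.

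Dppa3, the maternal factor that keeps UHRF1 out of the nucleus, was by far the most abundant member (ENSMUSG00000046323, chr6:122626410-122630272, plus strand). It held 0.718% to 0.928% of all counts of a pool. It measured 8292, 7828 and 8594 CPM in the control pools and 9739, 10119 and 6854 CPM in the quercetin pools. Quercetin pools 1 and 2 lay above all control pools and quercetin pool 3 below them, so the treated group spanned the control group. The means were 8238 ± 386 CPM in control and 8904 ± 1786 CPM in quercetin pools (SD, n = 3 each), and the log2 fold change was 0.11 (SE 0.175, edgeR adjusted p = 0.988), a fold of 1.08 with a 95% interval of 0.822 to 1.42. Without quercetin pool 3 it was 0.27 at an unadjusted p of 0.0375 and an edgeR adjusted p of 0.358, and in that fit 1563 genes passed an unadjusted p under 0.05.

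The copy Dppa3-ps, whose sequence is printed beside that of Dppa3, had 1548, 1306 and 1639 counts in control and 1491, 1984 and 1151 counts in quercetin pools. These were 2.09%, 2.01% and 2.15% of the Dppa3 count in control and 1.92%, 2.15% and 1.98% in quercetin pools. The copy's share ran from 1.92% to 2.15% while Dppa3 itself ranged from 58227 to 92250 counts. Transcription of the copy and reads of Dppa3 assigned to it cannot be told apart in gene counts.

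**Figure D3:**
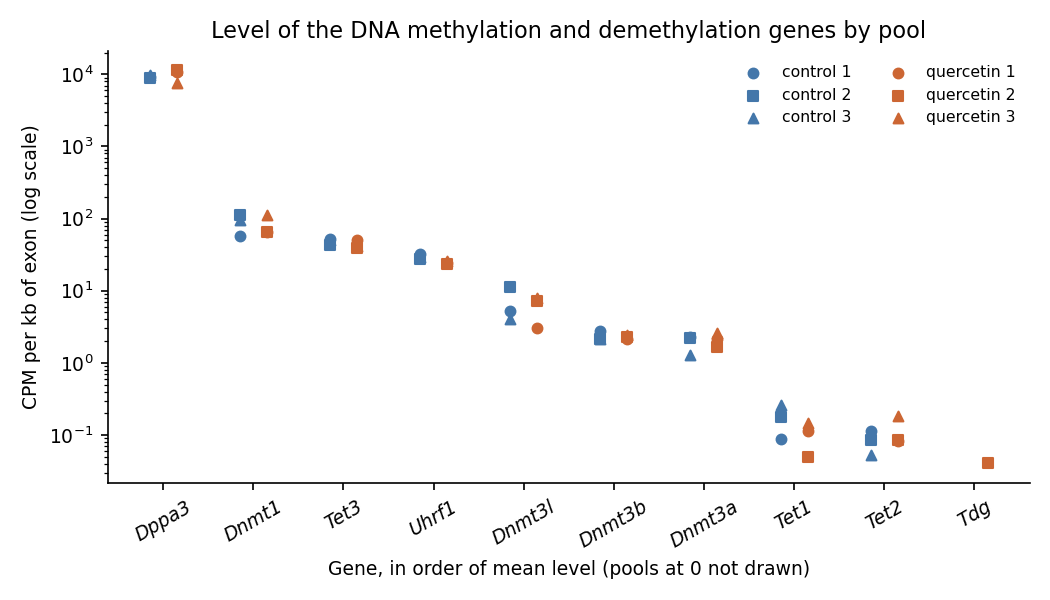
Level of each of the 10 genes in each pool, in CPM per kilobase of exon on a log axis, with control in blue, quercetin in orange and a marker shape for each replicate number. Pools at 0 are not drawn. The members run from Dppa3 at a mean of 9609 CPM per kilobase down to Tdg, drawn only for quercetin pool 2.

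Tet3, the dioxygenase stored in the egg that oxidises 5-methylcytosine in the zygote, was the Tet gene with the highest level (ENSMUSG00000034832, chr6:83362373-83459084, minus strand). It measured 866, 724 and 842 CPM in the control pools and 852, 654 and 691 CPM in the quercetin pools. Quercetin pools 2 and 3 were below every control pool and quercetin pool 1 was among the high ones, so the groups overlapped. The means were 811 ± 75.8 CPM in control and 732 ± 105 CPM in quercetin pools (SD, n = 3 each), with a log2 fold change of -0.15 (SE 0.153, edgeR adjusted p = 0.988), a fold of 0.903 with a 95% interval of 0.710 to 1.15. Its exons overlap no other gene.

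Tet1, the dioxygenase known from primordial germ cells and embryonic stem cells, had 12, 23 and 36 counts in the control pools and 14, 7 and 19 in the quercetin pools (ENSMUSG00000047146, chr10:62804570-62908996, minus strand). Control pool 3 was the highest and quercetin pool 2 the lowest, and control pool 1 lay within the quercetin range. For Tet1 the log2 fold change was -0.78 (SE 0.523, unadjusted p = 0.170, edgeR adjusted p = 0.988), a fold of 0.582 with a wide 95% interval of 0.256 to 1.32. On the log2 scale it had the fold change furthest from 0 and the widest interval of the tested members, and Poisson counting of reads gave a coefficient of variation of 23.2%.

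Tet2, the dioxygenase known from blood-forming cells, was as scarce, with 17, 12 and 8 counts in control and 11, 13 and 26 counts in quercetin pools (ENSMUSG00000040943, chr3:133463679-133545139, minus strand). Quercetin pool 3 stood above the other 5 pools, which overlapped. For Tet2 the log2 fold change was 0.46 (SE 0.479, edgeR adjusted p = 0.988), a fold of 1.38 with a 95% interval of 0.649 to 2.92. Without quercetin pool 3 it was -0.01.

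Tdg, the glycosylase that removes the oxidised bases 5-formylcytosine and 5-carboxylcytosine, was close to undetected (ENSMUSG00000034674, chr10:82629828-82650799, plus strand). It had 0 counts in all 3 control pools, and 0, 2 and 0 counts in the quercetin pools. A count of 0 allows up to 3 counts, which is 0.302 to 0.381 CPM in these pools. That limit holds for the pools at 0. Quercetin pool 2 measured 0.219 CPM, and no upper limit was formed for its 2 counts. No fold change was formed. Of its 31-base words, 47.97% also occur in other genes, mainly the copies Tdg-ps, Gm9855 and Gm5597, and 52.0% do not. Tdg-ps, printed above beside Tdg, had 1 count in quercetin pool 3 and 0 elsewhere, and the other two had none. Whether reads with several matching places were discarded was not given in the sources used here, and the part of read assignment in the low count of Tdg was not tested.

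Compared per kilobase of exon over the 6 pools, the order of the members spanned several orders of magnitude. Dppa3 stood at 9609 ± 1358 CPM per kilobase (SD, n = 6 pools), with a median ratio of 131 to Dnmt1, the next member. Dnmt1 at 84.8 ± 25.3 was above Tet3 at 46.2 ± 5.56 in 6 of 6 pools, with a median ratio of 1.78. Tet3 was above Uhrf1, at 26.9 ± 3.14, in 6 of 6 pools with a median ratio of 1.65. Dnmt3l at 6.41 ± 2.91 and then Dnmt3b at 2.31 ± 0.256 and Dnmt3a at 2.04 ± 0.461 followed. Dnmt3b exceeded Dnmt3a in 3 of 6 pools, and these neighbours did not differ beyond their spread. Tet1 at 0.139 ± 0.0749 and Tet2 at 0.0999 ± 0.0442 likewise exceeded each other in 3 of 6 pools. Dnmt1 and Tet3 thus lay far above Dnmt3a, Dnmt3b, Tet1 and Tet2 in level. The length used decides some neighbours. By coding length Tet3, at 142 CPM per kilobase, was above Dnmt1 at 129, and Dnmt3a, at 11.96, was above Dnmt3b at 4.58. By the longest transcript Dnmt3a, at 3.50, was above Dnmt3b at 2.73, and Tet2, at 0.184, was above Tet1 at 0.150.

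Ratios within a pool do not depend on library scaling, and 3 of them set members with opposed or joint roles against each other. They are ratios of counts, not scaled by gene length, so a ratio of 1 does not mean equal transcript levels. They serve only to compare the groups. The ratio of Dppa3 to Uhrf1 counts, the inhibitor to its target, was 61.2, 66.9 and 69.6 in control and 94.1, 101 and 62.6 in quercetin pools. Quercetin pools 1 and 2 were high and quercetin pool 3 lay within the control range. The difference in mean log2 ratio, quercetin minus control, was 0.36 (two-sided exact permutation p = 0.3, adjusted over the 3 ratios 0.9). The ratio of Tet3 to Dnmt1, removal to maintenance, was 2.05, 0.881 and 1.18 in control and 1.76, 1.37 and 0.828 in quercetin pools. The groups overlapped, and the difference was -0.03 on the log2 scale (exact permutation p = 1, adjusted 1). The ratio of Dnmt3a to its partner Dnmt3l was 2.40, 1.12 and 1.77 in control and 3.92, 1.31 and 1.84 with quercetin, which is a log2 difference of 0.33 (exact permutation p = 0.6, adjusted 0.9). Quercetin pool 1, where Dnmt3l was lowest, had the highest ratio, and the groups overlapped.

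**Figure D4:**
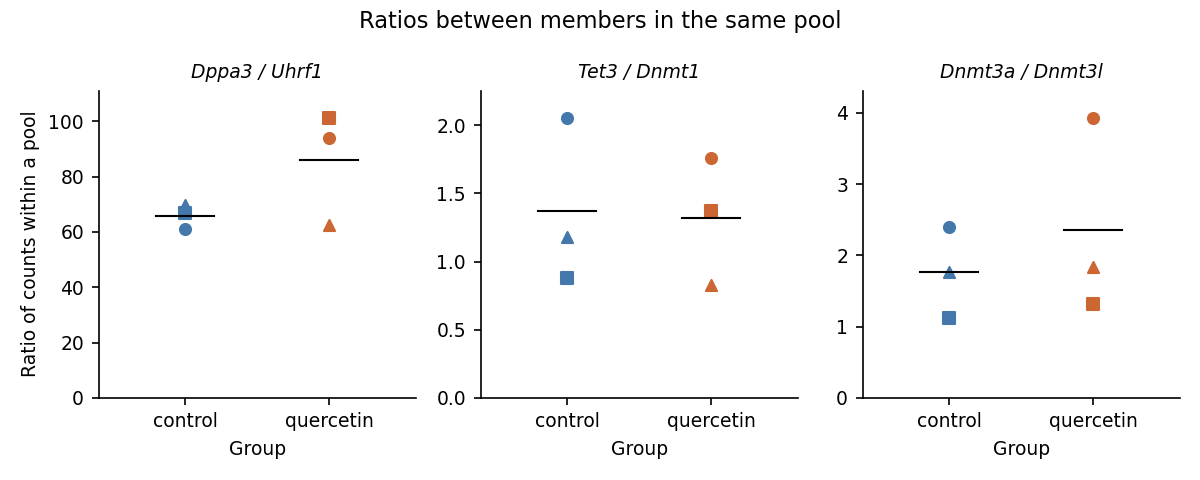
Ratio of counts within each pool for Dppa3 to Uhrf1, Tet3 to Dnmt1 and Dnmt3a to Dnmt3l, by group, on linear axes from 0. Each point is a pool (circle, square and triangle for replicates 1, 2 and 3) and each line the mean of the ratios in a group. Control and quercetin pools overlap in all 3 ratios.

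How far pools of one group differed varied among the members, whatever the treatment. The within-group SD of log2 CPM was above the 0.319 median of tested genes for 5 members, Dnmt1 (0.484), Dnmt3a (0.386), Dnmt3l (0.736), Tet1 (0.705) and Tet2 (0.527). It was below that median for the other 4, Dnmt3b (0.167), Uhrf1 (0.0893), Dppa3 (0.224) and Tet3 (0.173). Tet1 and Tet2 were also the members with the fewest counts of those tested, whereas Dnmt1 had 3770 to 7087 counts per pool.

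The transcript starts of the members were described from RefSeq sequence, since methylation of CpG sites is what these genes act on. Of the 10 members, 9 matched with 16 annotated starts, and Dppa3 did not match. Their 250 bases before the start held 2 to 51 CpG dinucleotides, with a median of 16 against 6 over 32851 starts of all genes. At least 10 CpG were found at 11 of the 16 starts, against 37.8% of all starts. Several members gave more than a single start, and windows of neighbouring Dnmt3a starts overlap, so these are not comparisons per gene. The 3 starts of Dnmt1 differed, with 2, 7 and 26 CpG, and those of Dnmt3l had 3 to 5. Counts per gene do not say which start was used, and neither methylation nor binding was measured in these pools.

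Other genes of the pathway were taken as 5 lists, 72 genes in all, of which 55 were tested and none was called. At an unadjusted p under 0.05, 3 were higher and 2 lower with quercetin, 9.09% of those tested against 4.03% of all genes, and none of these passed the adjustment, with edgeR adjusted p from 0.988 to 0.999 over the genes named here. The groups did not overlap for 5 tested list genes with quercetin higher and 6 with quercetin lower, out of 55. Neil1, which is among the 3 and among the 5, passed the count filter through its quercetin pools alone. These shares are therefore not independent of the filter. Over all tested genes the share without overlap was 10.6%, and the difference from that share was not tested. The medians of the lists lay between -0.134 and -0.00336 on the log2 fold scale, near the -0.03 of all tested genes.

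Of 16 partners and targeting factors, 16 were tested, 5 with a fold change above 0 and 11 below. Kdm1b, the histone H3K4 demethylase needed for imprints in the oocyte, measured 381 ± 2.82 CPM in control and 378 ± 25.0 CPM in quercetin pools (log2 fold change -0.01). Pcna, the replication clamp, measured 164 ± 18.5 and 197 ± 19.0 CPM (log2 fold change 0.26). Cdca7, a subunit of the HELLS remodelling complex, measured 13.4 ± 2.07 and 20.3 ± 4.99 CPM, a log2 fold change of 0.60 (SE 0.252) at an unadjusted p of 0.0403. Its groups overlapped. Of 9 genes of families that include readers of methylated CpG, 6 were tested, 2 above 0 and 4 below. None of these genes passed an unadjusted p under 0.05. Per kilobase of exon Zbtb33 had the highest level (log2 fold change -0.15). Mbd2 followed at 2.38 ± 0.598 CPM per kilobase (log2 fold change 0.02), which did not differ beyond the spread from Mbd5 at 2.30 ± 0.465 (SD, n = 6 pools), and the order rests on the length used.

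Of 19 genes of base excision and deamination, 14 were tested, 5 above 0 and 9 below. Unlike Tdg, the glycosylase gene Neil3 was abundant and measured 884 ± 60.1 CPM in control and 1008 ± 124 CPM in quercetin pools (log2 fold change 0.19). Neil1 had 2, 3 and 6 counts in control and 12, 12 and 10 counts with quercetin, a log2 fold change of 1.63 (SE 0.524) at an edgeR unadjusted p of 0.0126. It reached the minimum count of 10 only in the quercetin pools and passed the filter through them alone. Its fold change and p are therefore not independent of the filter, and its control counts lay near the floor. Neil2 had 69, 72 and 53 counts in control and 40, 24 and 41 with quercetin, a log2 fold change of -0.84 (SE 0.322) at an unadjusted p of 0.0277. The groups of Neil1 and of Neil2 did not overlap, and the fold changes of these related glycosylases had opposite signs. Genes named here for a low unadjusted p are more apt to lack overlap, so the lack of overlap adds no separate support. Polb, the repair polymerase, had a log2 fold change of -0.01.

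Of 18 genes of methyl donor supply, 13 were tested, 6 above 0 and 7 below. Mat2b, the regulatory subunit of the S-adenosylmethionine synthetase, was the highest per kilobase of exon and measured 3795 ± 305 CPM in control and 2853 ± 1775 CPM in quercetin pools (log2 fold change -0.41, SE 0.355), and Shmt2 was the next (log2 fold change -0.003359). Mat1a, the synthetase form known from liver, had 37, 39 and 33 counts in control and 19, 13 and 27 in quercetin pools without overlap, a log2 fold change of -0.85 (SE 0.357) at an unadjusted p of 0.0419. Of 10 genes of TET partners and cofactor metabolism, 6 were tested, 2 above 0 and 4 below. Idh1, which makes the 2-oxoglutarate that TET enzymes need, measured 87.3 ± 13.3 CPM in control and 115 ± 9.33 CPM in quercetin pools without overlap, a log2 fold change of 0.40 (SE 0.164) at an unadjusted p of 0.0394. Hmces, which binds abasic sites in DNA, measured 767 ± 123 and 834 ± 130 CPM (log2 fold change 0.12).

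**Figure D5:**
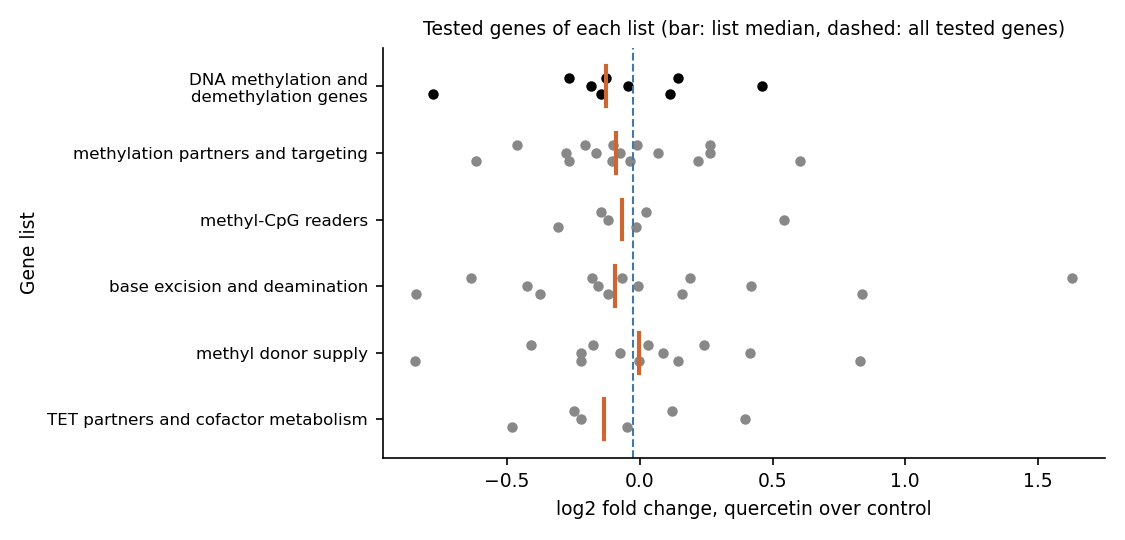
Log2 fold change of quercetin over control for each tested gene of the 10 members (black) and of the 5 pathway lists (grey), a point a gene, with an orange bar at each list's median and a dashed line at the median of all tested genes. The medians sit close to 0, and the point farthest to the right is Neil1 at 1.63, which passed the count filter through its quercetin pools alone.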

How the data were processed

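RNA was sequenced from 6 pools of oocytes, and the labels gave their groups and replicate numbers. The authors deposited raw read counts per pool for 53465 Ensembl genes. The paper names Hisat2 and GRCm38 release 91, whereas the submitters' processing notes name CASAVA 1.8 and TopHat2 2.0.6. The counting program, strand setting and treatment of multiply matching reads are not given in the sources used here.

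Symbols matched 53274 identifiers. Of 24476 genes with a count, 11842 passed filterByExpr (minimum count 10) of edgeR 4.0.16 in R 4.3.3. TMM-scaled counts were compared by its quasi-likelihood test (adjusted after Benjamini and Hochberg over the tested genes). A gene was called when it changed over 2-fold and its adjusted p was below 0.05. The standard error is the log2 fold change divided by the square root of F. Single values and ratios were compared by two-sided exact permutation tests (scipy 1.17.1). Exon and coding lengths, overlaps and 31-base words came from GENCODE M21 on GRCm38, and promoter sequence from RefSeq on GRCm38.p6. The fits were tested on simulated data. The 3-count floor covers counting error only. Nothing says that pools of a group came from separate cultures beyond their mice. The p-values therefore set a group difference against the spread between these pools only.

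All 10 members were named, and from each pathway list the 2 with the highest level and up to 4 with an unadjusted p under 0.05, with the top 2 of each marker list and copies on which a result turns. The members and lists were chosen with earlier results of these data known. Alternatives were DESeq2 1.42.0, other edgeR tests and scalings, limma 3.58.1, other filters, leaving out each pool, a replicate block and other lengths.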

Additional observations from a re-analysis of the deposited data

How the results depend on the processing

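No member was called under any alternative tried, and over members and alternatives the adjusted p ran from 0.358 to 1. Tet1 and Tet2 could not be called in 2 of these: DESeq2 gave them no adjusted p, and the filter of at least 10 counts in every pool left them out. Of 124 member values under an alternative, 114 kept the direction and 10 did not, all from leaving out a pool. With 1 pool left out at a time the log2 fold change ran from -0.44 to 0.0729 for Dnmt1, -0.0650 to 0.29 for Dnmt3a, -0.11 to 0.0920 for Dnmt3b, -0.44 to 0.36 for Dnmt3l and -0.0123 to 0.74 for Tet2. It kept its sign for Uhrf1 (-0.31 to -0.20), Dppa3 (0.01 to 0.27), Tet1 (-1.12 to -0.37) and Tet3 (-0.27 to -0.07). The log2 ratio difference ran from 0.22 to 0.57 for Dppa3 to Uhrf1, -0.30 to 0.31 for Tet3 to Dnmt1 and -0.11 to 0.67 for Dnmt3a to Dnmt3l.

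Over all tested genes the count called moved from 0 to 12 with DESeq2, 16 with the likelihood ratio test, 3 without the filter and 103 at an unadjusted p under 0.05 and a fold over 2, and ran from 0 to 7 with 1 pool left out, with 7 without quercetin pool 1 and 6 without quercetin pool 3. The quasi-likelihood test itself gave 477 genes at an unadjusted p under 0.05. By library size alone, without TMM, Uhrf1 was at -0.35 with an unadjusted p of 0.0370 and an edgeR adjusted p of 0.937, and all genes split into 145 higher and 362 lower at an unadjusted p under 0.05, against 253 and 224 with TMM. The cause of these moves was not tested.

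Same-numbered pools did not deviate together throughout (correlations of 0.296, 0.101 and -0.03), and not every pool correlated best with its own number. The highest correlation between any control and quercetin pool, 0.296, was nevertheless within a number. With so few pools in a group, these correlations cannot decide whether the numbers pair the pools. With the replicate number as a block, 0 genes and 0 members were called, Uhrf1 was at -0.26 and Dppa3 at 0.09, and 131 genes passed an unadjusted p under 0.05 and a fold over 2.

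With 3 pools against 3 an exact permutation p cannot go below 0.1. Intervals of Dnmt3l, Tet1 and Tet2 do not exclude a 2-fold change, Tet1 and Tet2 rest on 7 to 36 counts per pool, and Tdg on 2 counts in all.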

Other observations

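Several genes that supply or remove small molecules of the pathway were scarce like Tdg. Ahcy, whose product hydrolyses the S-adenosylhomocysteine left by each methylation, had 2, 0 and 0 counts in control and 3, 3 and 7 counts in quercetin pools, and 71.42% of its 31-base words also occur in other genes. Idh2, the mitochondrial enzyme that makes 2-oxoglutarate, had 0 counts except 3 in quercetin pool 3, and shares none of its words. D2hgdh, which clears the 2-hydroxyglutarate that inhibits TET enzymes, was at 0 in all 6 pools. These genes were chosen after their values were seen.

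Mat2b, of the methyl donor genes the highest per kilobase of exon, had 33164, 29390 and 36715 counts in control and 15628, 44653 and 14474 counts in quercetin pools. Quercetin pools 1 and 3 lay below every control pool and quercetin pool 2 above every one. Of the glycosylases that act on thymine or uracil mispaired with guanine, which is also a substrate of TDG, Mbd4 had 102 to 179 counts per pool, Smug1 338 to 544 and Ung 105 to 233, against 0 to 2 for Tdg.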
